A study of Mus musculus with 8 samples.

Results

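The collagen chain genes are the genes that encode the chains of the collagens, the main structural proteins of the extracellular matrix. They were taken by name, as every row of the deposited liver gene table whose symbol reads Col, a number, a and a number. The rule itself uses no measured value, but it was chosen with earlier results of these data known. The rule found 38 genes among the 16122 in the table. The GENCODE M21 annotation holds 44 genes with such names, and the other 6 (Col10a1, Col24a1, Col26a1, Col2a1, Col6a4 and Col9a1) were not analysed here. The deposited counts were too low to test 12 of the 38, so 26 entered the comparison.

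A collagen is a protein in which 3 chains wind around each other into a rope-like helix. Fibrillar collagens line up into the banded fibres that give tissue its strength. Type IV collagen forms the sheet of basement membranes, type VI forms beaded filaments around cells, and fibril-associated collagens sit on the surface of the fibres. In the liver, stellate cells and portal fibroblasts are the main makers of fibrillar collagen, and scarring of the liver (fibrosis) is the build-up of fibrillar collagen together with other matrix. Hepatocytes, the main cells of the liver, are known as a source of type XVIII collagen.

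Bulk RNA sequencing was done on liver of male C57BL/6J mice, an inbred strain, in 8 libraries. All carry the wild-type genotype by label, and 4 belong to a group labelled NASH (nonalcoholic steatohepatitis, in which fatty liver tissue is inflamed) and 4 to one labelled WT. The study's mice were 8 weeks old when bought and then spent 28 weeks on a normal diet (ND) or on a diet high in fat, cholesterol and fructose (HFHC), before anaesthesia with chloral hydrate. No label ties the NASH and WT names to these diets, so taking NASH as the HFHC diet is an interpretation, and both groups share strain, sex, genotype and source. Nor do the labels say that each library came from its own mouse, so each p-value reflects only how far these libraries spread, and some of that spread may be technical.

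The libraries held between 25760117 and 32684719 counts, and the totals of NASH replicates 1 and 4, with clearly different gene values, were 26270597 and 26270596. Levels are in CPM, read counts scaled to a common library size, with the mean ± SD of the 4 libraries in each group. Log2 fold changes compare NASH with WT and carry their standard error (SE), with p-values from edgeR's quasi-likelihood test adjusted over all 12351 genes tested and a threshold of 0.05. Hepatocyte markers checked the tissue: Alb, the albumin gene, was read in every library, and the summed level of 11 such genes lay between 156001 and 189087 CPM in WT and between 41221 and 111253 CPM in NASH.

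The fibrillar type I and III chains were higher in NASH livers, led by Col1a1 at 27.5-fold. Some but not all chains of fibrillar type V and of beaded-filament type VI were higher too. Col18a1, the chain with the highest level per kilobase of transcript in both groups, did not pass the test. Of the 26 chains tested, 13 were higher in NASH, against 12.9% of all genes tested. A single chain, Col27a1, was lower, which is 3.85% against 6.00% of all genes, and 12 did not pass. In either direction 14 of 26 passed, against 18.9% of all genes. The 26 log2 fold changes had a median of 1.40, where all genes together had 0.012. All 13 chains that rose changed more than 2-fold and 9 of them more than 4-fold. Every NASH library lay above every WT library in 13 of the 26 chains tested, against 14.6% of all genes tested, and these were the 13 that rose. In bulk tissue more cells of a type and more RNA per cell cannot be told apart, and this holds for every level given here.

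**Figure D1:**
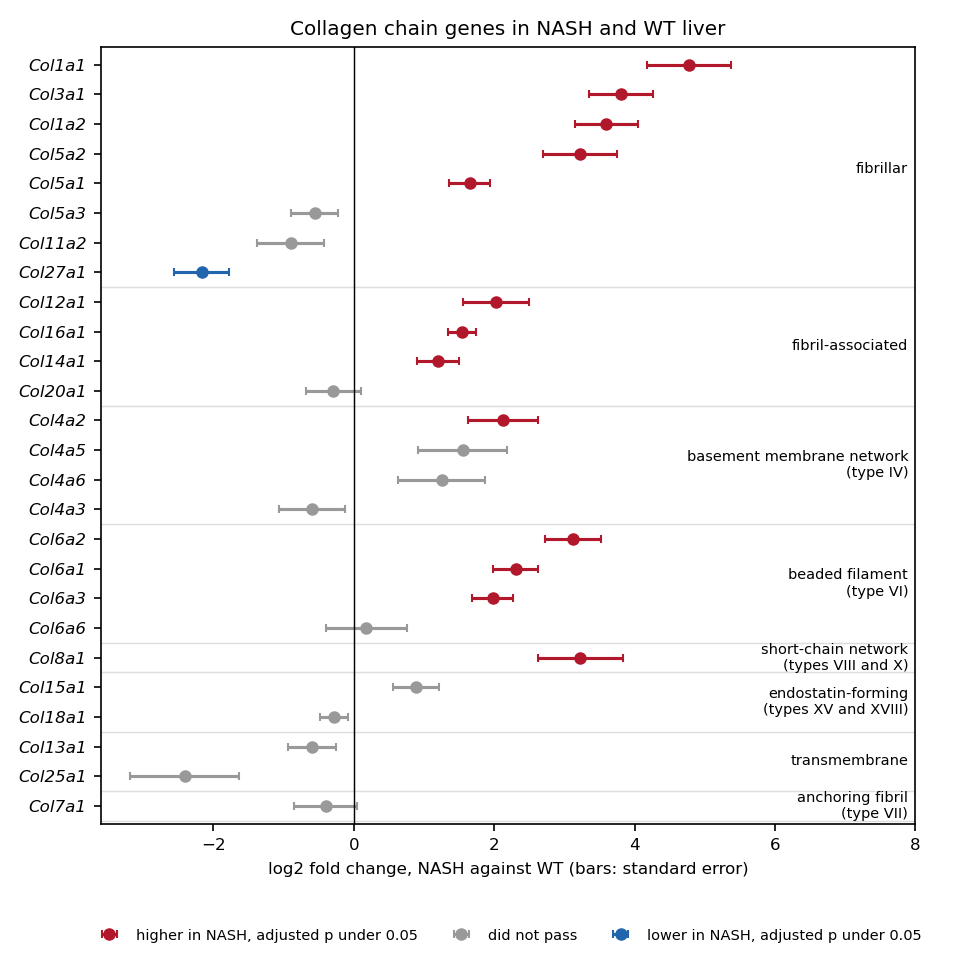
Log2 fold change of the 26 tested collagen chain genes in NASH against WT (horizontal axis), grouped by structural class, with bars showing the standard error. Red points passed as higher, the blue point passed as lower and grey points did not pass; Col1a1 lies farthest right at 4.78 and Col27a1 is the blue point at −2.17.

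The plot of fold changes by class shows rises in 5 of the structural classes: 5 of 8 fibrillar chains tested, 3 of 4 fibril-associated chains, 3 of 4 type VI chains, 1 of 4 type IV chains and the 1 short-chain network collagen tested. None of the 2 endostatin-forming, 2 transmembrane and 1 anchoring fibril chains tested passed (edgeR). Among these, Col15a1 (0.0233) and the transmembrane chain Col25a1 (0.0121) had an unadjusted p under 0.05, and DESeq2 called both, Col15a1 as higher and Col25a1 as lower.

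Type I collagen, the most abundant collagen of the body, is built of Col1a1 and Col1a2 chains. Col1a1 (ENSMUSG00000001506, chr11:94936224-94953042) was at 4.04, 2.88, 2.47 and 5.18 CPM in WT replicates 1 to 4 and at 27.4, 86.4, 75.5 and 211 CPM in NASH replicates 1 to 4. Every NASH library was far above the WT libraries, with replicate 4 highest and replicate 1 lowest. Col1a1 rose by 4.78 ± 0.60 on the log2 scale (adjusted p = 0.00379). Without NASH replicate 4 it was 4.10.

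Col1a2 (ENSMUSG00000029661, chr6:4504814-4541544) stood at 9.52, 8.31, 10.1 and 8.33 CPM in WT and at 39.1, 100.5, 86.6 and 213 CPM in NASH. Its WT libraries lay close together, while the NASH libraries spread widely in the same order as for Col1a1. It rose by 3.60 ± 0.45 on the log2 scale (adjusted p = 0.00379). Col3a1 (ENSMUSG00000026043, chr1:45311538-45349706), the chain of type III collagen that runs alongside type I in soft tissue, was at 17.9, 20.2, 17.9 and 18.2 CPM in WT and at 89.0, 258, 206 and 491 CPM in NASH. Here too the groups were far apart. Col3a1 rose by 3.81 ± 0.46 on the log2 scale (adjusted p = 0.00349).

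Bases from the 250 before the start of Col1a2, Col3a1 and Col27a1 are shown. The former pair rose most among the chains for which RefSeq (GRCm38.p6) gives a promoter window, and Col27a1 is the chain that fell. Windows were found for 31 of the 38 chains, and for 9 of the 13 that rose, with none for Col1a1. Capitals mark matches, on either strand, to the TATA box TATAAA, the letters CCAAT, the GC box GGGCGG, the binding site TGANTCA of the factor AP-1 and the SMAD-binding letters CAGACA within 250 bases before the start. Of the Col1a2 window, only the stretch that no GENCODE exon covers is printed, at chr6:4505370-4505492, and it stops short of the RefSeq start. The other 2 are printed whole, at chr1:45311288-45311537 and chr4:63215162-63215411. All lie on the plus strand.
Col1a2: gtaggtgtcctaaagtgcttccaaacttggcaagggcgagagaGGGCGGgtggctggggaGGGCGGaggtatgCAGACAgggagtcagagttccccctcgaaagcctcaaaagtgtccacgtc
Col3a1: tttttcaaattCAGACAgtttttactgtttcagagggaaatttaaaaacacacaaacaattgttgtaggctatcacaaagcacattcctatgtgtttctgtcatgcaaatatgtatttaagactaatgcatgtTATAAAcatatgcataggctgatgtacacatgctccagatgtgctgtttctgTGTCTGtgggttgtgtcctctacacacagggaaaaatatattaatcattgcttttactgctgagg
Col27a1: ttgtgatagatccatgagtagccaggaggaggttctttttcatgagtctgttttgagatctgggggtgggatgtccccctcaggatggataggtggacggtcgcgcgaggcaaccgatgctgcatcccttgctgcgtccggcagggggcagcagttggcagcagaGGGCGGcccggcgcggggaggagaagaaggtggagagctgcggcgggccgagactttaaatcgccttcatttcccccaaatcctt

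Col1a2 held GC boxes 205 and 188 bases before its RefSeq start, CAGACA at 175 bases and, in the stretch not printed, CCAAT at 109 bases. Col3a1 held CAGACA or its reverse complement 239 and 65 bases before its start and TATAAA at 117 bases, and Col27a1 held a GC box at 85 bases. The windows of Col1a2 and Col27a1 lie inside these genes as GENCODE draws them, which start at 4504814 and 63214004. Over the 33 windows of the collagen chains, GGGCGG stood in 63.6% against 32.7% of all 32851 windows, CAGACA in 27.3% against 17.1%, CCAAT in 33.3% against 33.8%, TATAAA in 12.1% against 12.4% and TGANTCA in 3.0% against 6.7%. These matches describe letters only, and binding of a factor was not measured.

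**Figure D2:**
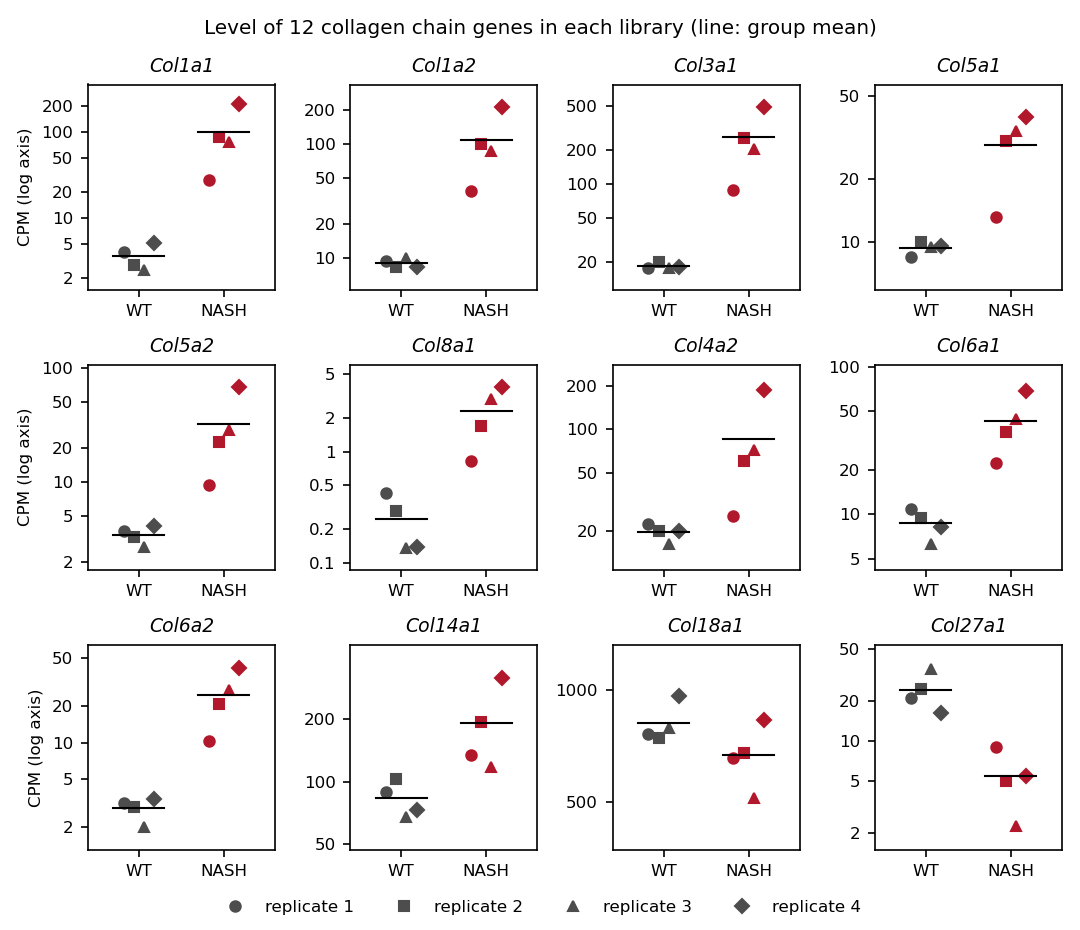
Level of 12 collagen chain genes in CPM (log axes, a separate scale in each panel) in the 4 WT and 4 NASH libraries, with the symbol giving the replicate number and the line the group mean. In the panels of chains that rose, all NASH points lie above all WT points; Col18a1 overlaps, and Col27a1 lies lower in every NASH library.

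Type V collagen, which joins type I in mixed fibres and limits their width, rose in 2 of its 3 chains. Col5a1 (chr2:27886425-28039514) was at 8.47, 10.0, 9.38 and 9.51 CPM in WT and at 13.2, 30.4, 34.0 and 39.5 CPM in NASH. The groups did not overlap, although NASH replicate 1 lay close to the WT libraries, and the log2 fold change was 1.65 ± 0.29 (adjusted p = 0.00974). Opposite-strand transcripts in GENCODE share 99 and 113 exonic bases with Col5a1, and the strand setting of the counting is not given in the sources used here.

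Col5a2 (chr1:45374321-45503282) was at 3.75, 3.28, 2.67 and 4.09 CPM in WT and at 9.49, 22.4, 28.6 and 68.4 CPM in NASH. All NASH libraries were higher, with replicate 4 far above the others. Its rise of 3.22 ± 0.53 on the log2 scale (adjusted p = 0.00804) was 2.53 without NASH replicate 4. The remaining chain, Col5a3, had 36.5 to 43.2 CPM in WT and 38.1, 39.1, 12.1 and 18.7 CPM in NASH replicates 1 to 4, and it did not pass, at −0.56 ± 0.33 on the log2 scale (adjusted p = 0.252). Its NASH replicates 1 and 2 lay within the WT range and replicates 3 and 4 below it.

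Col27a1 (ENSMUSG00000045672, chr4:63214004-63334991), a fibrillar collagen known mainly from cartilage, was the chain that fell. It stood at 21.1, 24.9, 35.0 and 16.4 CPM in WT and at 9.06, 5.0, 2.28 and 5.42 CPM in NASH, so all NASH libraries lay below all WT libraries. This held for 1 of the 26 chains tested, against 12.2% of all genes tested. The log2 fold change was −2.17 ± 0.39 (adjusted p = 0.0101), a 4.5-fold fall. Of 6 chondrocyte (cartilage cell) markers in the table, 3 could be tested and none passed (edgeR), Matn1 and Matn3 were at 0 in WT, and the summed level was 29.4 to 41.2 CPM in WT and 24.2 to 32.5 CPM in NASH. With a library left out, 0 to 1 of these markers were lower. For Col11a2, another fibrillar chain of cartilage, the test was not passed (−0.90 ± 0.48 on the log2 scale, adjusted p = 0.21), and its partner Col11a1 had 4 counts in all, each in NASH replicate 2.

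Of the 4 type VI chains tested, which form beaded filaments, 3 were higher in NASH. Col6a1 (chr10:76708792-76726168) was at 10.8, 9.48, 6.34 and 8.22 CPM in WT and at 22.4, 36.4, 44.5 and 68.8 CPM in NASH (log2 fold change 2.31 ± 0.32, adjusted p = 0.00542). Col6a2 (chr10:76595762-76623630) went from 3.16, 2.92, 2.02 and 3.43 CPM to 10.3, 21.1, 27.1 and 41.7 CPM (log2 fold change 3.12 ± 0.40, adjusted p = 0.00395). Col6a3 (chr1:90765923-90843971), the longest of these chains, went from 11.5, 14.7, 9.59 and 11.2 CPM to 22.6, 55.0, 63.2 and 43.9 CPM (log2 fold change 1.98 ± 0.29, adjusted p = 0.00606). No WT library reached a NASH library for any of them, and Col6a3 was the chain among the 13 whose highest NASH library was replicate 3 and not replicate 4. Col6a6 did not pass, at 0.18 ± 0.58 on the log2 scale (adjusted p = 0.846), and Col6a5 had 16 counts in WT and 47 in NASH and was not tested.

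Type IV collagen, the network of basement membranes, was represented by 6 genes, arranged in the genome as pairs that start close together on opposite strands. Col4a2 (ENSMUSG00000031503, chr8:11312805-11449287) was at 22.2, 19.9, 16.2 and 19.8 CPM in WT and at 25.4, 60.0, 72.3 and 185 CPM in NASH. NASH replicate 1 lay just above the WT range and replicate 4 far above it. The log2 fold change was 2.13 ± 0.50 (adjusted p = 0.0207), and 1.41 without NASH replicate 4. The call was lost without any of the 4 WT libraries (adjusted p = 0.0549 to 0.0632).

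Col4a1 (ENSMUSG00000031502, chr8:11198423-11312826), whose chain joins that of Col4a2 in basement membranes throughout the body, had no count in 7 libraries and 7 counts in NASH replicate 3. Its partner held between 16.2 and 185 CPM in the same libraries. A count of 0 in the 4 WT libraries allows up to 3 counts, and this limit covers counting error only. The cause of this gap between partners was not tested, and the Col4a1 value is not read here as a level of the gene. The genes overlap at their starts by 22 bases, shown for that reason, at chr8:11312805-11312826 on the plus strand of GRCm38.p6, out of 7464 exonic bases of Col4a1.
Col4a1 and Col4a2, shared stretch: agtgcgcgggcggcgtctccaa

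The other type IV pairs did not pass. Col4a5 was at 1.31, 2.22, 3.66 and 0.665 CPM in WT and 1.18, 6.33, 7.94 and 7.61 CPM in NASH (log2 fold change 1.55 ± 0.63, adjusted p = 0.112). It was above the WT range in NASH replicates 2 to 4 and within it in replicate 1, and it passed without NASH replicate 1 (adjusted p = 0.0171) and with DESeq2 (adjusted p = 0.0437). Its neighbour Col4a6, 1308 bases away on chromosome X, had a log2 fold change of 1.25 ± 0.62 (adjusted p = 0.176). Col4a3 had −0.60 ± 0.47 (adjusted p = 0.378) and shares 563 exonic bases with an opposite-strand transcript, while Col4a4, which starts 71 bases from it, had 33 counts in WT and 37 in NASH and was not tested.

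Among the fibril-associated collagens, Col14a1 (chr15:55307750-55520803) had the highest level per kilobase of transcript. It stood at 89.0, 103, 67.8 and 72.8 CPM in WT and at 135, 193, 118 and 315 CPM in NASH. The groups did not overlap, but the gap between WT replicate 2 and NASH replicate 3 was small beside the spread within NASH. The log2 fold change was 1.20 ± 0.30 (adjusted p = 0.026), and the call was lost without WT replicate 1, 3 or 4 (adjusted p = 0.0701, 0.0765 and 0.0734).

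Col16a1 (chr4:130047840-130099283) was at 2.48, 2.88, 2.19 and 2.48 CPM in WT and at 5.87, 8.25, 6.80 and 8.28 CPM in NASH. It was the chain that rose with the least spread among NASH libraries for its level, and its log2 fold change was 1.54 ± 0.20 (adjusted p = 0.00379). Col12a1 rose by 2.03 ± 0.47 on the log2 scale (adjusted p = 0.0194), from 2.76 to 3.96 CPM in WT and 5.0 to 26.4 CPM in NASH. Its call was lost without any of the 4 WT libraries (adjusted p = 0.0543 to 0.0577) and with limma-voom (0.0679). Col20a1 did not pass, at −0.29 ± 0.39, or 0.09 with library totals alone (adjusted p = 0.619 and 0.883), and Col9a2, Col9a3, Col19a1 and Col22a1 were too low to test, with 1 to 24 counts in WT and 0 to 39 in NASH.

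Col8a1 (ENSMUSG00000068196, chr16:57624258-57754737), a short-chain network collagen of vessel walls, was low in all libraries, at 0.421, 0.292, 0.137 and 0.140 CPM in WT and at 0.827, 1.70, 2.94 and 3.82 CPM in NASH. No WT library reached the lowest NASH library. The log2 fold change was 3.23 ± 0.60 (adjusted p = 0.0109), and a filter of at least 1 CPM in 4 libraries removed the gene from the test. Its partner chain Col8a2 had 14 counts in WT and 22 in NASH and was not tested.

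Col18a1 (ENSMUSG00000001435, chr10:77052178-77166548), the basement membrane collagen whose end piece is the fragment endostatin, was at 761, 746, 793 and 962 CPM in WT and at 658, 679, 513 and 831 CPM in NASH. The ranges overlapped, with NASH replicate 4 above 3 of the WT libraries, and Col18a1 did not pass, at −0.28 ± 0.20 on the log2 scale (adjusted p = 0.333), or 0.06 with library totals alone. Col15a1, the other endostatin-forming chain, was at 5.01, 4.56, 4.25 and 4.97 CPM in WT and at 4.14, 7.88, 14.8 and 8.01 CPM in NASH. NASH replicate 1 lay below every WT library and the other 3 above, and its change of 0.89 ± 0.33 on the log2 scale did not pass (adjusted p = 0.0858). Without NASH replicate 1 it was 1.12 and passed (adjusted p = 0.011).

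No membrane-spanning chain passed. Col25a1, known from nerve and muscle, was at 0.421, 0.693, 1.3 and 2.52 CPM in WT and at 0.197, 0.0370, 0.152 and 0.532 CPM in NASH. WT replicate 1 lay below NASH replicate 4, so the groups overlapped, and the change of −2.41 ± 0.78 on the log2 scale did not pass (adjusted p = 0.0575). It was −3.23 and passed without NASH replicate 4 (adjusted p = 0.049). Col13a1 did not pass (−0.60 ± 0.34, adjusted p = 0.232), and Col17a1, with 21 counts in WT and 10 in NASH, and Col23a1, with 22 and 53, were not tested. Col7a1, the anchoring fibril collagen of skin, was at 0.8, 0.765, 0.788 and 0.385 CPM in WT and at 0.591, 0.703, 0.482 and 0.299 CPM in NASH (log2 fold change −0.40 ± 0.45, adjusted p = 0.541). Col28a1 had 1 count in WT and 16 in NASH, 8 each in replicates 2 and 4.

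The NASH libraries kept much the same order across chains. Replicate 1 was the lowest NASH library in 12 of the 13 chains that rose, and replicate 4 the highest in 12 of 13. With scaling by library totals alone, replicate 1 was lowest in 13, and replicates 4 and 3 were highest in 10 and 3. Under that scaling the median over all genes moved to 0.37 (log2), and all 13 chains still passed. Leaving out each library in turn, 10 of the 13 passed every time, as did the fall of Col27a1, with Col4a2, Col12a1 and Col14a1 the exceptions. How often other genes that rose keep the same order of NASH libraries was not tested. Over all genes 1597 were higher, and 2238, 1483, 1228 and 825 with NASH replicate 1, 2, 3 or 4 left out.

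The collagen chains together held 0.0898%, 0.0928%, 0.0925% and 0.106% of all counts in WT replicates 1 to 4 and 0.109%, 0.171%, 0.187% and 0.297% in NASH replicates 1 to 4. Without Col18a1 these shares were 0.0213% to 0.0257% in WT and 0.0451%, 0.0996%, 0.116% and 0.202% in NASH. Col18a1 alone took 72.3% to 79.8% of collagen counts in WT and 58.5%, 41.7%, 38.2% and 32.0% in NASH. Types I and III (Col1a1, Col1a2 and Col3a1) took 2.63% to 3.06% in WT and 13.8%, 27.3%, 27.4% and 35.2% in NASH. The part of type IV was 1.80% to 2.44% in WT and 2.44% to 7.48% in NASH, and that of type VI 1.93% to 2.66% and 4.99% to 10.1%. The type IV part was mostly Col4a2, since Col4a1 had 7 counts in NASH and 0 in WT. The Col4a1 value is not read here as a level, and this limit holds for all sums over the chains. Type V held 4.47% to 5.38% of collagen counts in WT and 4.87% to 5.65% in NASH, so its ranges overlapped. These shares describe sums over the chains, and no test was made on them. The shares of all counts use raw library totals, and with that scaling the median log2 fold change over all genes was 0.37.

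**Figure D3:**
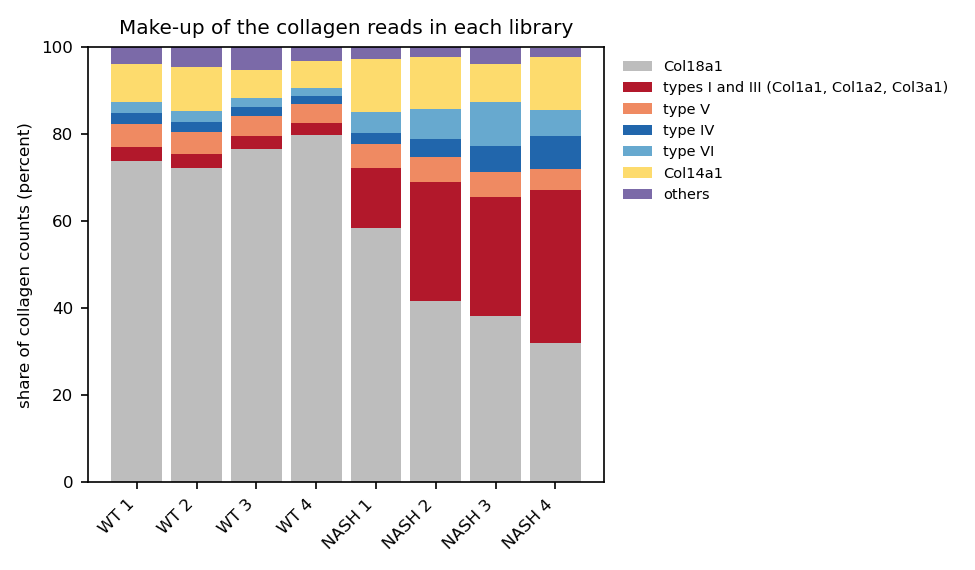
Share of all collagen counts (percent, stacked to 100) taken by Col18a1, by types I and III, by types V, IV and VI, by Col14a1 and by the other chains in each of the 8 libraries. The grey Col18a1 part falls from 72.3% or more in WT to 58.5% or less in NASH, and the red part of types I and III is largest in NASH replicate 4 at 35.2%. The type IV part holds next to no Col4a1 counts.

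The plot of the collagen make-up counts reads, which favour long transcripts. Per kilobase of each gene's principal or longest coding transcript in GENCODE M21, Col18a1 had the highest level of the 38 in both groups, at 146 ± 17.9 CPM per kilobase in WT and 119.8 ± 23.3 in NASH (SD, n = 4 each). With the length of all exons merged in place of that transcript, a choice made after seeing the data, the Col18a1 value in NASH was 95.5. Below it the order differed between groups. In WT Col14a1 was second (12.9 ± 2.47), then Col5a3 (6.49 ± 0.453), Col3a1 (3.33 ± 0.200) and Col27a1 (3.20 ± 1.04), of which the last 2 did not differ beyond their spread. In NASH Col3a1 was second (46.9 ± 30.3), then Col14a1 (29.5 ± 13.8), Col1a2 (20.5 ± 13.8) and Col1a1 (16.9 ± 13.2), with spreads that overlap. These SDs are spreads between libraries that the chains share, so they do not measure how firm the order is within a library. In CPM, Col3a1 lay above Col1a2 and Col1a2 above Col1a1 in every NASH library. Col1a1 went from rank 14 of 38 in WT to rank 5 in NASH, Col1a2 from 8 to 4, Col5a3 from 3 to 11 and Col27a1 from 5 to 18.

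Within types I, V and VI some chains rose by unequal amounts, as did Col3a1 of type III and Col1a1 of type I. The ratio of counts of chain partners does not depend on the scaling between libraries, and 6 ratios were compared by an exact two-sided permutation test, adjusted over the 6, in which 4 against 4 libraries cannot give a p below 0.0286. A type I molecule usually holds a pair of Col1a1 chains for each Col1a2 chain. The ratio of Col1a1 to Col1a2 counts was 0.426, 0.348, 0.246 and 0.623 in WT and 0.702, 0.860, 0.871 and 0.992 in NASH. All NASH libraries were higher, with a log2 difference of 1.13 (exact p = 0.0286, adjusted p = 0.0429).

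The ratio of Col3a1 to Col1a1, which belong to different collagens, was 4.41, 6.97, 7.21 and 3.51 in WT and 3.25, 2.98, 2.73 and 2.32 in NASH. It was lower in all NASH libraries, by 0.91 on the log2 scale between group means (exact adjusted p = 0.0429). For type V, the ratio of Col5a1 to Col5a2 was 2.25 to 3.50 in WT and 1.39, 1.36, 1.19 and 0.578 in NASH, with a log2 difference of −1.36 (exact adjusted p = 0.0429). For type VI, the ratio of Col6a1 to Col6a2 was 2.39 to 3.4 in WT and 2.18, 1.73, 1.64 and 1.65 in NASH, with a log2 difference of −0.75 (exact adjusted p = 0.0429). Each of these 4 ratios separated the groups fully, whereas Col6a3 to Col6a1 overlapped (1.06 to 1.55 in WT, 0.638 to 1.51 in NASH, log2 difference −0.32, exact adjusted p = 0.343). The ratio of Col4a1 to Col4a2 (exact adjusted p = 0.343) is not interpretable, since Col4a1 had next to no counts. The ratios share chains, as Col1a1 and Col6a1 each stand in 2 of them, so they are not independent. A ratio of counts also depends on transcript length and on how reads were assigned, so its size is no ratio of molecules.

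**Figure D4:**
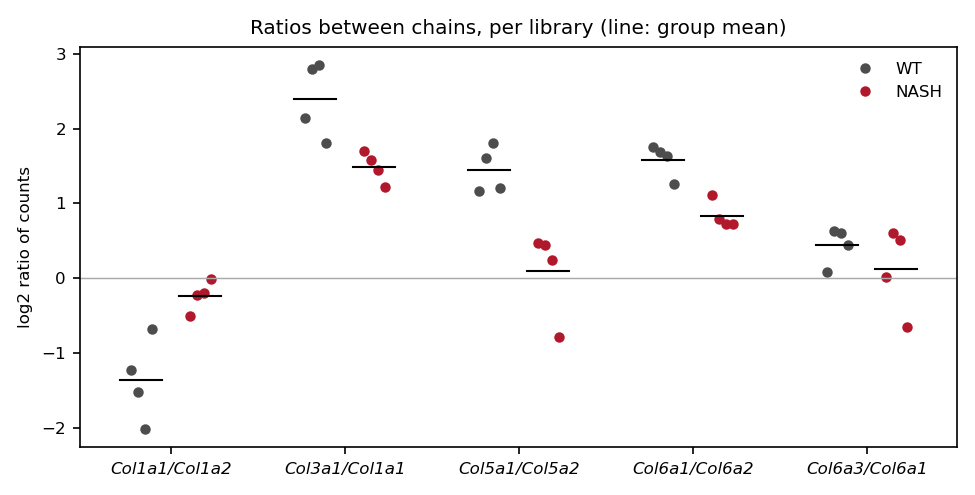
Log2 ratio of the counts of 2 collagen chains in each WT (grey) and NASH (red) library for 5 pairs, with the group mean as a line and points offset sideways for visibility alone. The groups separate in the first 4 pairs, upwards for Col1a1/Col1a2 and downwards for the next 3, and overlap for Col6a3/Col6a1.

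Some chains that rose are neighbours in the genome, while other neighbouring chains did not pass or were not tested. Col3a1 and Col5a2 end 24.6 kilobases apart on chromosome 1 and point towards each other. Col6a2 and Col6a1 lie 85.2 kilobases apart on the same strand of chromosome 10, and Col18a1, which did not pass, lies 326 kilobases beyond Col6a1. The neighbours Col4a5 and Col4a6 did not pass. Col4a3, Col6a6 and Col20a1 did not pass either, and their neighbours Col4a4, Col6a5 and Col9a3 were not tested. Col4a2 rose beside Col4a1, which was not tested. Whether neighbours rise together more often than other chains was not tested.

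Collagen chains are modified and folded in the endoplasmic reticulum, cut and crosslinked outside the cell, bound by receptors and later broken down, and genes for each of these steps were read from lists in the same fit. These lists and the marker lists below were chosen with earlier results of these data known, so their counts are description only. Of the genes that fold and modify collagen, 7 of 27 tested were higher, against 12.9% of all genes, and none lower, with a median log2 fold change of 0.23. Serpinh1, the collagen chaperone HSP47, was at 14.7, 13.7, 11.4 and 12.9 CPM in WT and at 30.8, 44.6, 53.4 and 52.0 CPM in NASH, with no overlap (log2 fold change 1.78 ± 0.18, adjusted p = 0.00199). Sparc, a secreted collagen-binding protein, rose by 1.87 ± 0.34 on the log2 scale (adjusted p = 0.0106). The others that rose were Creb3l1 (2.19 ± 0.46), Plod2 (2.27 ± 0.55), Fkbp10 (1.78 ± 0.44), Crtap (1.54 ± 0.33) and Colgalt1 (0.74 ± 0.16). P4hb, a subunit of the prolyl hydroxylase with the highest level among those that did not pass, had 1348 ± 143 CPM in WT and 1426 ± 186 in NASH (SD, n = 4 each, log2 fold change 0.08 ± 0.19, adjusted p = 0.789). The count of 7 was 2 without WT replicate 1, and the log2 fold change of Plod2 was 1.60 without NASH replicate 4.

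Of the genes that process, assemble and crosslink fibrils, 12 of 18 tested were higher, against 12.9% of all genes, and none lower, and each of the 18 was positive on the log2 scale (median 1.53). Lum, a small proteoglycan on fibrils, was at 6.53, 6.89, 9.01 and 9.48 CPM in WT and at 17.4, 45.6, 58.7 and 95.0 CPM in NASH, again with replicate 4 highest and replicate 1 lowest (log2 fold change 2.76 ± 0.44, adjusted p = 0.00749). Tgm2, a crosslinking transglutaminase, rose by 2.10 ± 0.35 (adjusted p = 0.00804). Lox, the lysyl oxidase that starts collagen crosslinks, was at 0.253 to 0.685 CPM in WT and 0.867, 4.59, 6.44 and 28.8 CPM in NASH, and its log2 fold change of 4.69 ± 1.00 (adjusted p = 0.0154) was 3.32 without NASH replicate 4. The propeptide-cutting enzyme gene Adamts2 rose by 1.62 ± 0.28 and Pcolce, an enhancer of that cutting, by 1.48 ± 0.37 (adjusted p = 0.00931 and 0.0248). Fn1, the fibronectin gene, did not pass, at 0.20 ± 0.27 (adjusted p = 0.63). Lox, Adamts2 and Pcolce were chosen after their values were seen. The count of 12 was 3, 5 and 6 without WT replicates 1, 3 and 4, and 6 with limma-voom.

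**Figure D5:**
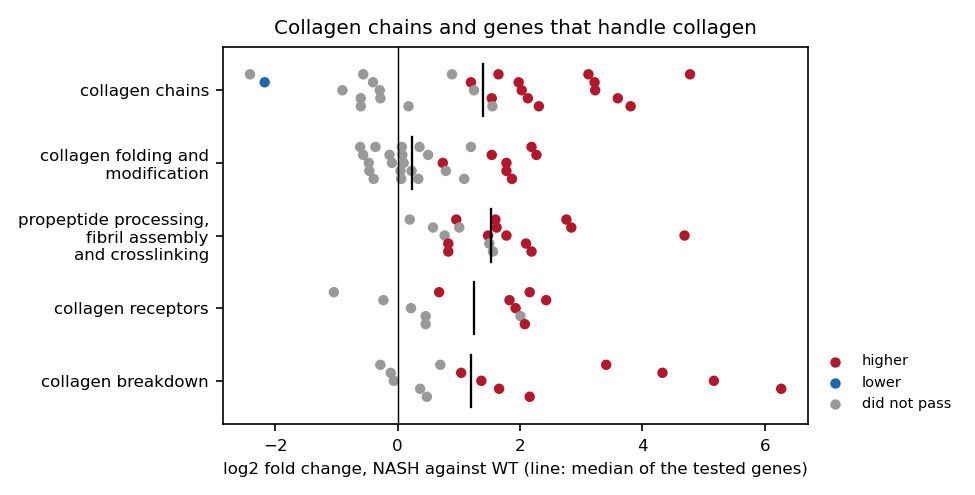
Log2 fold change in NASH against WT (horizontal axis) of the tested collagen chains and of the tested genes in 4 lists of genes that handle collagen, with a point per gene, spread vertically for visibility, and a black line at each median. Medians are 1.40 for the chains, 0.23 for folding and modification, 1.53 for processing and crosslinking, 1.25 for receptors and 1.20 for breakdown.

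Among collagen receptors, 6 of 12 tested were higher, against 12.9% of all genes, and none lower (median log2 fold change 1.25). Cd36, a scavenger receptor that also binds collagen, rose by 1.93 ± 0.24 (adjusted p = 0.00368) and Lair1, an inhibitory receptor of immune cells, by 2.08 ± 0.45 (adjusted p = 0.0164). The discoidin domain receptors Ddr1 and Ddr2, chosen after their values were seen, rose by 2.43 ± 0.69 and 0.68 ± 0.19 (adjusted p = 0.0376 and 0.0381). Itgb1, the integrin subunit that collagen-binding integrins share, did not pass (0.22 ± 0.16, adjusted p = 0.339). The count of 6 was 2 without WT replicate 1, 3 or 4 and without NASH replicate 4.

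Of the genes for collagen breakdown and its inhibitors, 8 of 14 tested were higher, against 12.9% of all genes, and none lower (median log2 fold change 1.20). Mmp13, a collagenase of rodent liver, was at 0.168, 0.182, 0.0685 and 0.315 CPM in WT and at 3.78, 5.66, 11.1 and 6.45 CPM in NASH, a wide gap with replicate 3 highest (log2 fold change 5.17 ± 0.50, adjusted p = 0.00199). Mmp12, a macrophage elastase, went from 1.35 to 1.82 CPM in WT to 47.3, 54.0, 299 and 104 CPM in NASH (log2 fold change 6.27 ± 0.67, adjusted p = 0.00271, and 5.38 without NASH replicate 3). Ctsl, a lysosomal protease, did not pass (0.48 ± 0.19, adjusted p = 0.113). The count of 8 was 5 without WT replicate 1, 3 or 4 and without NASH replicate 4. The plot of chains and list genes shows these medians side by side.

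Some markers of the cells that make collagen were higher in NASH, and others were not. Of the activated stellate cell and myofibroblast markers, 6 of 7 tested were higher, against 12.9% of all genes. Their summed level over 10 genes was 87.2 to 128 CPM in WT and 167 to 944 CPM in NASH, with S100a6 at 0 in WT. Spp1 alone, which also stands in the cholangiocyte list, held 38.3 to 74.0 CPM of it in WT and 78.8, 217, 684 and 368 CPM in NASH replicates 1 to 4. The count of 6 was 1, 2, 2 and 1 without WT replicates 1 to 4 and 3 without NASH replicate 3 or 4.

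Of the portal fibroblast markers, 5 of 11 were higher (8 without NASH replicate 1), against 12.9% of all genes. Their summed level over 15 genes was 38.0 to 44.0 CPM in WT and 82.6 to 159 CPM in NASH, with Clec3b at 0 in NASH. The summed level of the stellate cell markers was 404 to 509.9 CPM in WT and 485 to 759 CPM in NASH, with overlapping ranges. Of these markers, 5 of 15 were higher, against the same 12.9%. That count was 3 with any 1 of the WT libraries or NASH replicate 4 left out, and 9 without NASH replicate 1. Pdgfrb and Nes, the stellate markers with the smallest p, rose by 1.76 ± 0.31 and 1.61 ± 0.27 on the log2 scale (adjusted p = 0.00978 and 0.00783). The 10 that did not pass included 4 with negative log2 fold changes, named here after their values were seen, which were Hhip (−1.20 ± 0.39, adjusted p = 0.0601), Ngfr (−0.19 ± 0.28), Ecm1 (−0.13 ± 0.12) and Colec10 (−0.02 ± 0.16, and −0.12 to 0.09 with a library left out). The part of these cells in the rise of the chains was not tested.

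Markers of other cell types are set against the same 12.9% of all genes that were higher. Macrophage markers were higher in 7 of 13, with 133 to 457 CPM in WT and 491 to 2173 CPM in NASH, and the count was 4 without WT replicate 1, 3 or 4. Cholangiocyte markers were higher in 2 of 8, Spp1 and Krt7, with 81.0 to 122 CPM in WT and 107 to 766 CPM in NASH. Their count was 0 without WT replicate 1 or 4, 1 without WT replicate 3 and 4 without NASH replicate 1. Vascular smooth muscle markers were higher in 2 of 3, Smtn and Mustn1, with 12.6 to 13.7 CPM in WT and 13.1 to 28.7 CPM in NASH and Pln at 0 in NASH. Neither of them passed when any 1 of the WT libraries, NASH replicate 3 or NASH replicate 4 was left out, and 1 of them passed without NASH replicate 2.

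No marker of mesothelium (4 tested, 2.47 to 8.89 CPM in WT and 2.99 to 17.6 CPM in NASH), sinusoidal endothelium (10 tested, 332 to 506 and 380.1 to 708 CPM) or T, B and NK cells (7 tested, 3.24 to 7.02 and 4.85 to 7.81 CPM, Cd3d at 0 in WT) passed (edgeR). Without NASH replicate 1, 2 mesothelium markers and 1 marker of sinusoidal endothelium were higher, and without WT replicate 2, 1 of sinusoidal endothelium was. Of the T, B and NK cell markers, 0 to 1 were lower with a library left out. Hepatocyte markers were lower in 3 of 11, against 6.00% of all genes, and higher in none, with 0 to 3 lower when a library was left out. The part of each of these cell types in the collagen values was not tested.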

How the data were processed

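Raw counts of reads per gene, as the authors deposited them per the file headers, cover 8 liver libraries. Frozen tissue was extracted with Trizol and libraries made with a stranded total RNA kit, per the labels' protocols. The submitters' processing notes name HISAT2, HTSeq 0.9.1 and the builds mm9 and mm10 without their roles. The authors' normalized values in 8 further columns were not used.

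Counts were scaled with edgeR 4.0.16 (TMM), filtered with its default filter (12351 genes left) and tested with the quasi-likelihood F-test, robust, without covariates, on all 8 libraries in R 4.3.3, with Benjamini-Hochberg adjustment. The standard error is the log2 fold change divided by the square root of F. The script was tested on simulated counts. Chain ratios used log2 of counts plus 0.5. Coordinates are from GENCODE M21 (GRCm38), matched by Ensembl ID, and promoter windows from RefSeq.

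Members and lists were chosen with earlier results of these data known. Values per library are given for the 4 largest rises, the falls, the 6 highest levels, the 6 chain pairs and the smallest p in each class. From each list of genes that handle collagen the rule takes the 2 smallest p and the highest level that did not pass. For cell type markers the counts and summed levels are given, and the values of 1 marker are not reported here. Alternatives were other scalings, filters, DESeq2 1.42.0, limma-voom (limma 3.58.1), a replicate block and leaving out each library.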

Additional observations from a re-analysis of the deposited data

Results flagged for a closer look

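Of 62 groups of 4 libraries checked over the collagen chains, 2 held a library that stood apart from the other 3, where chance gives about 1 group in 20. Col7a1 was at 0.385 CPM in WT replicate 4, against 0.765 to 0.8 CPM in the other WT libraries. Col3a1 was at 20.2 CPM in WT replicate 2, against 17.9 to 18.2 CPM in the other WT libraries, a small excess beside the 89.0 CPM of the lowest NASH library.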

How the results depend on the processing

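Of 436 log2 fold changes of single chains under the alternatives, 407 kept their direction and side of the threshold, 17 no longer passed, 7 passed in addition and 5 turned sign. None of the chains or list genes named here that turned sign passed. Col18a1 and Col20a1 were at 0.06 and 0.09 and Myh11 at 0.32 with library totals alone, and Myh11 was at 0.05 with upper-quartile scaling. With a library left out, the lowest and highest were −0.10 and 0.83 for Col6a6, −0.02 and 0.15 for P4hb, −0.10 and 0.30 for Fn1 and −0.56 and 0.16 for Myh11. Between 9 and 13 of the 13 rises were called under each alternative. The 1 fall became 2 with DESeq2 and 1 to 2 with a library left out. Over all genes, library totals alone gave 3071 higher and 220 lower, DESeq2 gave 1361 lower, and leaving out a library gave 636 to 2238 higher and 185 to 1504 lower. Higher members of the lists ranged, with a library left out, from 2 to 9 (folding), 3 to 14 (processing), 2 to 7 (receptors) and 5 to 9 (breakdown). Folding genes numbered 11 higher with library totals alone, with 2 lower under DESeq2 and 0 to 2 lower with a library left out. Processing genes numbered 6 higher with limma-voom, and 1 receptor was lower with DESeq2. Libraries left out leave fewer samples to test, and for the others the cause was not tested.

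Deviations from the group mean in same-numbered WT and NASH libraries had correlations of −0.144 to 0.0344 across genes. Differently numbered libraries had −0.224 to 0.24. The labels do not say whether the numbers pair samples, and so few correlations cannot decide it. With the replicate block, 467 genes were higher and 151 lower, 9 chains rose (without Col12a1, Col14a1, Col4a2 and Col8a1) and 0 fell, and the lists had 2, 4, 1 and 5 higher. Paired by number, the ratio differences stayed at 1.13, −0.91, −1.36 and −0.75, where the exact sign-flip test cannot go below p = 0.125. In the deposited counts 12 chains held too few to test, and for Col4a1, which is 1 of them, the cause was not tested.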
